A study of Mus musculus with 6 samples.

Results

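Ependymal cells are the ciliated glia that line the brain ventricles. The cells described here are those that carry the authors' label for ependymal cells in the libraries of the mice that received FGF1 R50E. They numbered 1530 of the 20151 cells of these mice, with 440 in mouse 3, 245 in mouse 4, 380 in mouse 30 and 465 in mouse 34.

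All cells were taken from the hypothalamus. The mice were males of the ob/ob strain, which lacks leptin and becomes obese, aged 11 weeks and housed alone on chow. Each was given an intracerebroventricular dose of 3 µg of FGF1 R50E, a form of the growth factor that binds integrins poorly, with tissue taken on day 5. Each library was made from 1 mouse with a 10x Genomics 3′ kit, which counts unique molecular identifiers (UMIs), 1 for each captured RNA molecule. The labels name 6 such mice, of which mice 12 and 37 were not analysed here. All 4 mice had the same strain, sex and treatment, so no effect of FGF1 R50E was estimated, and the treatment, the obesity and the injection cannot be told apart.

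An ependymal cell carries a tuft of motile cilia whose beat moves cerebrospinal fluid along the ventricle wall. The core of the cilium, the axoneme, is a ring of microtubule doublets around a central pair. Dynein arms are its motors, radial spokes and the nexin-dynein complex regulate bending, and intraflagellar transport builds it. The genes for these parts are switched on by Foxj1 and by factors of the RFX family. In the third ventricle the ependymal cells of the upper wall give way to tanycytes, elongated cells of the floor and lower wall that reach into the hypothalamus. Tanycytes were therefore the first comparison, and astrocytes, the glia of the tissue behind the wall, the second.

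The ependymal share of a mouse's cells was 8.34% ± 2.96 (SD, n = 4), from 5.96% in mouse 3 to 12.6% in mouse 30. Their summed UMIs were 618468, 346326, 474114 and 831384 in mice 3, 4, 30 and 34. Levels are given as CPM, the UMIs of a gene per 1000000 UMIs of the summed cells of a type in 1 mouse, and a count of 0 allows up to 3 UMIs, or 4.85, 8.66, 6.33 and 3.61 CPM in the ependymal cells of these mice. The median ependymal cell held between 974.5 and 1266 UMIs. With every cell thinned to 500 UMIs the median number of genes in ependymal cells was 363, 371, 368 and 361, above tanycytes (339 to 345) and astrocytes (329 to 338) in 4 of 4 mice, but above oligodendrocyte precursor cells (370 to 378) in 0 of 4 and committed oligodendrocyte precursors (365 to 371) in 1 of 4. An exact paired permutation test over 4 mice cannot give a two-sided p below 0.125. Cell barcodes were shared between libraries in 194 cases, which involved 6 ependymal cells that shared one with another ependymal cell.

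The label was checked against 4 genes of motile cilia. Foxj1, the transcription factor of motile cilia, measured 639, 751, 713 and 752 CPM in the ependymal cells of mice 3, 4, 30 and 34, the order used throughout, against 79.6, 78.3, 72.7 and 108 CPM in the tanycytes of the same mice. Ccdc153 stood at 1368, 1259, 1162 and 1442 CPM against 10.5 to 12.5 CPM, and Tmem212 at 1488, 1068, 1257 and 1555 CPM against 6.81 to 23.1 CPM. Rsph1, a radial spoke protein, stood at 758, 716, 620.1 and 656 CPM against 120.1 to 139 CPM. For each of the 4 genes every ependymal value lay above every tanycyte and astrocyte value. Their sum was 4051 ± 327 CPM in ependymal cells (SD, n = 4), 17 times the mean of tanycytes and 110 times that of astrocytes. These genes mark the label, which probably rests on the same counts, so their levels describe it and carry no test.

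**Figure D1:**
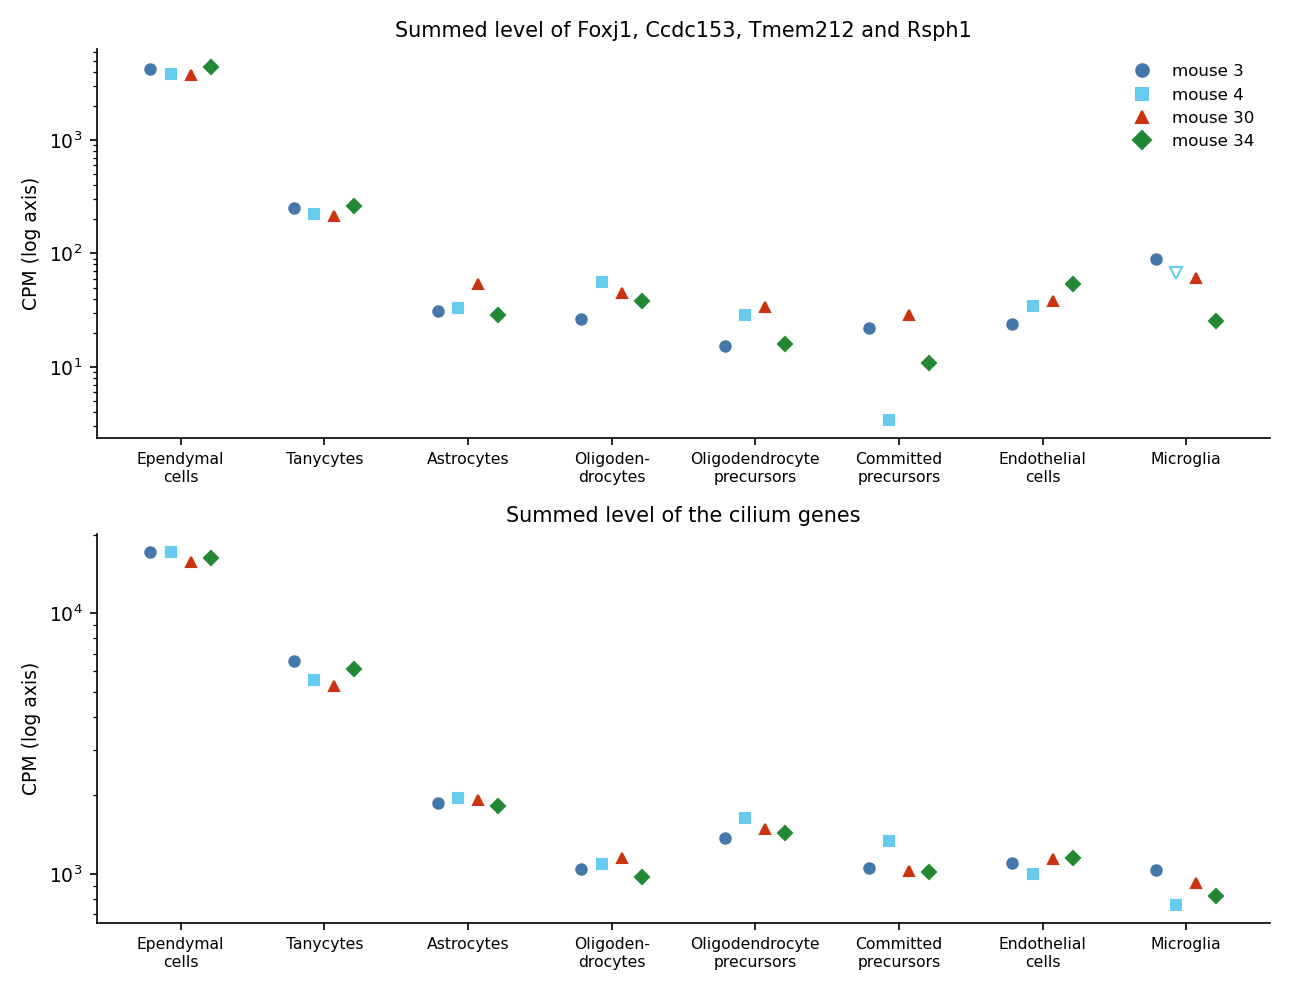
Summed level of the 4 ependymal markers and of the 131 cilium genes in the authors' cell types, in CPM on a log axis, with 1 point for each mouse. An open triangle stands at the floor of 3 UMIs where no UMI was counted. In both panels ependymal cells lie above every other type shown in all 4 mice, with the marker sum at 3752 CPM or more.

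Single cells showed the same markers. At 500 UMIs a cell, Ccdc153 was seen in 45.7% ± 3.32 of ependymal cells (SD, n = 4), against 0.406% ± 0.128 of tanycytes and 0.217% ± 0.121 of astrocytes. Foxj1 was seen in 29.9% ± 4.47, against 3.81% ± 0.431 and 0.90% ± 0.345. The unthinned shares in ependymal cells were 71.6% and 53.9%, at a mean median depth of 1099.5 UMIs, against 1075.75 UMIs in tanycytes. At least 2 of the 4 markers were seen in 81.6%, 76.3%, 72.9% and 87.3% of ependymal cells, and in at most 3.20% of the tanycytes of a mouse. None of the 4 was seen in 13, 15, 22 and 14 ependymal cells.

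Markers of other types were mostly low. The 5 tanycyte markers summed to 128, 107, 154 and 171 CPM in ependymal cells, against 1276 to 1652 CPM in tanycytes. Much of that sum was Scn7a, a sodium channel gene, which went against its list with 69.5, 72.2, 103 and 115 CPM in ependymal cells and 4.92, 47.6, 54.8 and 12.3 CPM in tanycytes (1.88 ± 0.26 on the log2 scale used below). The 5 astrocyte markers summed to 1127 to 1392 CPM against 6809 to 7337 CPM in astrocytes, the 4 microglial markers to 28.9 to 69.6 CPM against at least 6134 CPM in microglia, and the 4 endothelial markers to 25.3 to 46.4 CPM. The 5 oligodendrocyte markers summed to 2973, 2154, 1879 and 1396 CPM in ependymal cells, beside 1826 to 3304 CPM in tanycytes and 2577 to 4619 CPM in astrocytes, so none of these types was free of them.

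The choroid plexus, whose epithelium adjoins the ependyma, has no label of its own. Its defining gene Ttr stood at 1.62, 0, 4.22 and 21.7 CPM in ependymal cells, and Kl and Kcnj13 had no UMI in them. Folr1, a folate receptor that this epithelium is known for, measured 59.8, 43.3, 50.6 and 42.1 CPM in ependymal cells and 0 to 1.13 CPM in tanycytes, which held 4 UMIs, a ratio of pooled levels of 69.1 (95% counting interval 26.2 to 258). Astrocytes held no UMI of Folr1, which puts ependymal cells at least 89.4-fold higher, with the floor of 3 UMIs taken over all astrocytes. Clic6 at 56.6 to 96.2 CPM and Otx2 at 13.2 to 30.7 CPM were present too. The 6 choroid plexus genes summed to 141 to 173 CPM in ependymal cells, 19.3 to 295 CPM in tanycytes and 103 to 107 CPM in astrocytes. By the test described below, 3 of 4 tested were called higher and 1 lower than in tanycytes (13.1% and 6.73% of all genes). Against astrocytes 1 of 3 was called higher and 0 lower (17.6% and 14.3% of all genes).

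For the comparisons across genes, the UMIs of a type were summed per mouse and fitted with the edgeR quasi-likelihood test, with the mouse as a block. A gene was called at a Benjamini-Hochberg adjusted p below 0.05 over all genes tested and a log2 fold change beyond 1 in size. A log2 fold change is given as value ± SE and is positive where ependymal cells were higher. Against tanycytes 8781 genes were tested, of which 1152 (13.1%) were called higher and 591 (6.73%) lower in ependymal cells. Against astrocytes 8371 were tested, of which 1470 (17.6%) were called higher and 1195 (14.3%) lower. The median over all genes tested was -0.03 and -0.02. The calls describe what the label separates, since the labels were probably made from the same counts.

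Cilium genes were collected in 9 lists with 135 members, of which 131 were in the files. Against tanycytes 119 members held enough UMIs to be tested, 83 were called higher and 0 lower, where 13.1% of all genes were called higher. No member was lower at an unadjusted p below 0.05 by edgeR, and DESeq2 called 0 lower. Against astrocytes 117 were tested, 112 were called higher, where 17.6% of all genes were, and 1, Rfx4, was called lower. Members that are near 0 outside ependymal cells passed the filter through their ependymal UMIs alone, so these counts and medians, and the p-values of such members given below, describe the tested members and support nothing further. The median log2 fold change was 1.48 against tanycytes and 3.59 against astrocytes. Together the 131 genes made up 17133, 17203, 15783 and 16356 CPM in ependymal cells, 5276 to 6565 CPM in tanycytes and 1822 to 1952 CPM in astrocytes. The mean in ependymal cells was 2.83 times that of tanycytes and 8.80 times that of astrocytes, and tanycytes were themselves above astrocytes in every mouse.

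**Figure D2:**
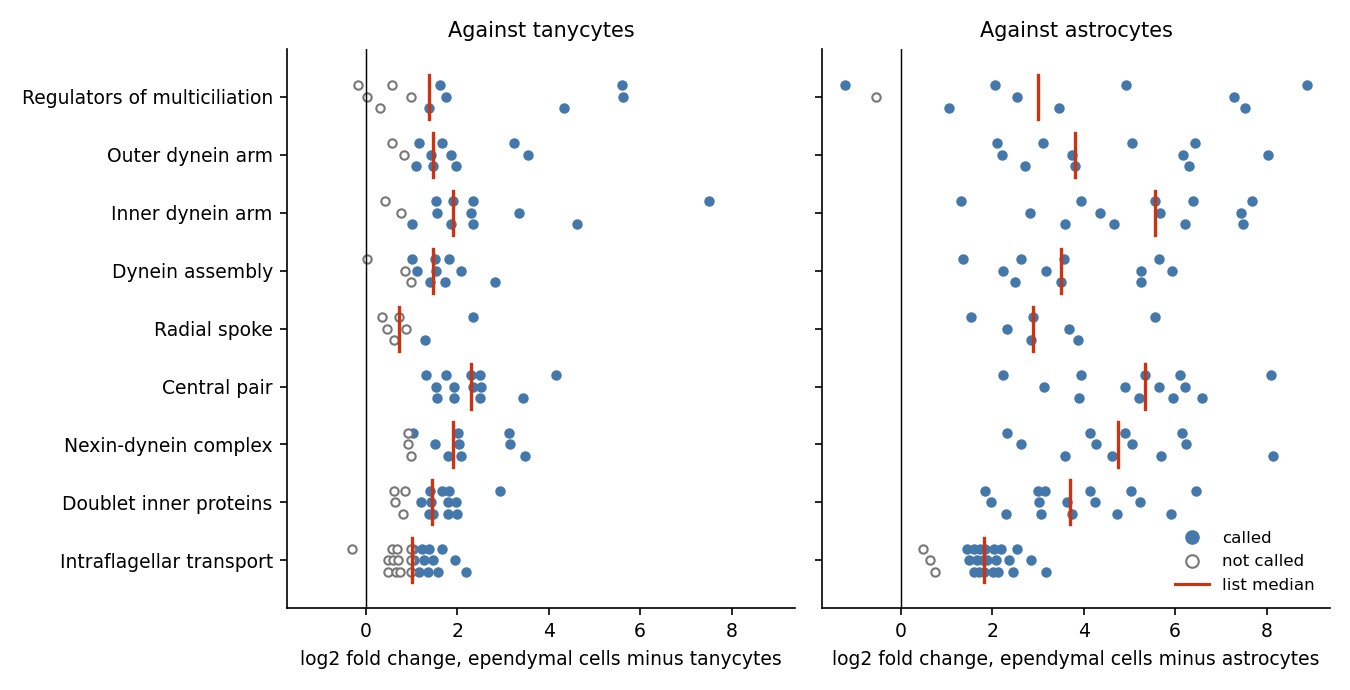
Log2 fold change of each tested member of the 9 cilium lists, for ependymal cells minus tanycytes and minus astrocytes. Filled points were called, open points were not, and the red line is the median of a list. All 13 central pair genes were called higher in both comparisons, while the medians against tanycytes fall to 1.01 for intraflagellar transport and 0.73 for radial spoke genes.

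The X-box, the sequence that RFX factors bind, was looked for in the promoters of these genes. The letters GTTNCC, NNN and GNAAC in a row (N for any base) were searched on both strands from 250 bases before to 50 after the gene start, in RefSeq promoters of GRCm38.p6. Of the 131 cilium genes 107 had a promoter there, and 10 of the 107 (9.35%) held a match, against 151 of 12551 (1.2%) of the genes listed in the files and 253 of 27025 (0.936%) of all promoters in the table. Among genes tested against tanycytes 112 of 7127 (1.57%) held one. Among the genes called higher than in each other type, described below, 15 of 324 (4.63%) did, and these share members with the cilium lists. Matches were in 4 of 15 doublet genes and 2 of 12 central pair genes, and in 0 of 11 regulators and 0 of 11 inner dynein arm genes. The 7 windows shown are those of genes tested against both types whose match begins at least 10 bases before the gene start. Each runs 5′ to 3′ on the strand of its gene, from 30 bases before the match to 30 after it or to the gene start if that comes first, with the whole match in capitals. In Cfap45 and Hydin the letters read on the opposite strand.
Hydin: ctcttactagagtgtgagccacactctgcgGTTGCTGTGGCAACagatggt
Spag16: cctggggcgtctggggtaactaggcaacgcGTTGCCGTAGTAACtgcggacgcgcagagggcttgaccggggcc
Iqca: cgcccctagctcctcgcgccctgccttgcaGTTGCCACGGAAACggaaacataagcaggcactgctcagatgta
Cfap45: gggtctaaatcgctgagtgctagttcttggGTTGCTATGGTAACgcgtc
Enkur: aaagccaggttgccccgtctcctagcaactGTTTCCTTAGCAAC
Ccdc151: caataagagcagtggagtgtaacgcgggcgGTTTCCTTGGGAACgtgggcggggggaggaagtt
Ttc26: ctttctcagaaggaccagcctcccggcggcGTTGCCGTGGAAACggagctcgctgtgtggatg

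The windows lie at chr8:110266926-110266976 on the plus strand for Hydin, chr1:69826837-69826910 plus for Spag16, chr1:90153493-90153566 minus for Iqca, chr1:172521081-172521129 plus for Cfap45, chr2:21205364-21205407 minus for Enkur, chr9:22002635-22002698 minus for Ccdc151 and chr6:38381461-38381523 plus for Ttc26. Each of the 7 genes was called higher in ependymal cells than in tanycytes and than in astrocytes. Spag16, a central pair protein, measured 109.9, 185, 114 and 178 CPM in ependymal cells and 19 to 31.8 CPM in tanycytes (2.30 ± 0.16). Iqca, of the nexin-dynein list, measured 199, 274, 177 and 196 CPM against 14.7 to 25 CPM (3.16 ± 0.15), and Cfap45, a protein inside the doublets, 257, 225, 314 and 253 CPM against 62.1 to 115 CPM (1.37 ± 0.13). Enkur (1.21 ± 0.10), Ccdc151 (1.44 ± 0.20) and the transport gene Ttc26 (2.19 ± 0.26) completed the set, with Hydin described below. A match describes letters and is not a site of binding, and a gene without one lacks only these letters in this window.

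Regulators of multiciliation split. Of 13 members in the files 11 were tested against tanycytes, 6 were called higher and 0 lower. Myb, a factor that acts in multiciliated cells, measured 160.1, 133, 114 and 173 CPM in ependymal cells and 2.24 to 3.4 CPM in tanycytes (5.60 ± 0.23, adjusted p = 3.70e-24). Trp73, the p53 relative that switches on multiciliation genes, measured 45.3, 69.3, 56.9 and 50.5 CPM against 0.492 to 1.13 CPM, from 5 UMIs in all tanycytes, a ratio of pooled levels of 60.2 (95% counting interval 25.1 to 189). Each had 1 UMI in all astrocytes, where the ratio of pooled levels was 829 (95% counting interval 148 to 32824) for Myb and 292 (95% counting interval 51.5 to 11640.1) for Trp73. Of the RFX factors, Rfx2 was called higher than in tanycytes (1.37 ± 0.19, adjusted p = 3.15e-08). Rfx3 was not, with 134, 141, 146 and 152 CPM in ependymal cells and 147, 118, 129 and 133 CPM in tanycytes, which overlapped (0.02 ± 0.12, adjusted p = 0.890). Rfx3 was called higher than in astrocytes at 1.06 ± 0.15, a call lost without mouse 30 (0.98). Rfx4 was called lower than in astrocytes, at 66.3, 75.1, 31.6 and 49.3 CPM against 109.7 to 126 CPM (-1.21 ± 0.18, adjusted p = 8.72e-06). Gmnc and Ccno, which act while multiciliated cells form, had 25 and 28 UMIs in all ependymal cells and were not tested. The multiciliation median against astrocytes was 3.00, and Ccdc67, with no UMI in astrocytes and ependymal cells at least 47.5-fold higher, lies above it at its bound as well.

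Outer dynein arms power the beat. Of their 11 tested genes 9 were called higher than in tanycytes and 11 higher than in astrocytes. Dnah5, a heavy chain whose loss is known to cause primary ciliary dyskinesia, measured 205, 176, 198 and 176 CPM in ependymal cells and 10.2 to 19.7 CPM in tanycytes (3.54 ± 0.17, adjusted p = 3.30e-22), and its pooled level was 345 (95% counting interval 117 to 1678) times that of astrocytes, which held 3 UMIs. Dnah9, another outer heavy chain, stood at 183, 214, 169 and 173 CPM against 34.8 to 66.9 CPM in tanycytes (1.86 ± 0.14, adjusted p = 1.02e-15). Both heavy chains had separate ranges in the 2 types.

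Inner dynein arms shape the bend, and 11 of their 13 genes were called higher than in tanycytes and 13 higher than in astrocytes. Dnah12 stood at 343, 482, 403 and 326 CPM against 29.5 to 37.9 CPM in tanycytes (3.36 ± 0.12, adjusted p = 4.35e-26). Dnah10 stood at 134, 124, 124 and 132 CPM against 1.05 to 6.72 CPM (4.62 ± 0.23, adjusted p = 1.29e-21). Dnah3 had 135 UMIs in ependymal cells and 1 in tanycytes, a ratio of pooled levels of 336 (95% counting interval 59.3 to 13368). All 3 are heavy chains, and none overlapped with tanycytes. Factors that assemble the arms in the cytoplasm had 9 of 12 tested genes called higher than in tanycytes and 11 of 11 than in astrocytes, among them Zmynd10 at 115, 127, 80.1 and 109 CPM against 19.3 to 35.9 CPM in tanycytes (1.82 ± 0.17).

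The central pair apparatus had the highest median of the 9 lists against tanycytes, 2.30, and its 13 members were all called higher than in tanycytes and than in astrocytes (5.34). Hydin, a giant central pair protein whose loss is known to cause hydrocephalus in mice, measured 183, 257, 202 and 206 CPM in ependymal cells, 11.3 to 20.2 CPM in tanycytes and 0.453 to 3.00 CPM in astrocytes (3.44 ± 0.16 and 6.58 ± 0.25, adjusted p = 2.79e-22 and 2.28e-14). Spag17 stood at 160.1, 271, 229.9 and 210.5 CPM against 6.32 to 14.7 CPM in tanycytes (4.16 ± 0.18, adjusted p = 3.38e-23), and its pooled level was 384 (95% counting interval 131 to 1869) times that of astrocytes. Cfap54, of a projection of the central pair, stood at 333, 407, 348 and 374 CPM against 44.2 to 68.3 CPM in tanycytes (2.50 ± 0.12, adjusted p = 2.39e-22). Summed over the list, ependymal cells held 1927, 2428, 2004 and 2118 CPM, 4.89 times the mean of tanycytes and 30.0 times that of astrocytes, the highest ratios of the 9 lists.

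Radial spokes link the central pair to the doublets. Rsph1, a spoke gene, stands on the marker list above and not on this one. Of the 10 members 7 were tested, of which 2 were called higher than in tanycytes and 7 higher than in astrocytes, and with Rsph1, added after the values were seen, 3 and 8 of 8. The sum of the list was 1.97 times that of tanycytes, and 2.64 times with Rsph1. Rsph4a, a protein of the spoke head, was called at 212, 225, 219 and 180.4 CPM against 29.5 to 46.2 CPM (2.35 ± 0.14, adjusted p = 8.78e-19). Rsph9, also of the head, was not called at 257, 156, 217 and 207 CPM against 118 to 137 CPM (0.62 ± 0.12, adjusted p = 2.07e-05), and neither was Nme5 at 276, 208, 293 and 257 CPM against 163 to 188 CPM (0.46 ± 0.11, adjusted p = 3.73e-04). Both passed the adjusted p and not the size.

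The nexin-dynein complex, which ties neighbouring doublets, had 9 of 12 genes called higher than in tanycytes (median 1.90) and 12 of 12 than in astrocytes (4.76). Proteins inside the doublets had 12 of 16 called higher than in tanycytes (1.45) and 16 of 16 than in astrocytes (3.69). Tekt4, a filament protein of the doublets, measured 173, 113, 114 and 118 CPM against 9.07 to 18.5 CPM in tanycytes (2.93 ± 0.18, adjusted p = 2.32e-18). Cfap126 was not called against tanycytes, at 468 to 623 CPM against 253 to 312 CPM (0.82 ± 0.09), and was against astrocytes (4.74 ± 0.21).

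Intraflagellar transport serves primary cilia too. Of its 24 tested genes 12 were called higher than in tanycytes (median 1.01) and 21 higher than in astrocytes (1.83), with 0 called lower in either comparison by edgeR or DESeq2 and 0 lower at an unadjusted p below 0.05. Ift88, a core protein of the transport train, stood at 112, 118, 129 and 107 CPM in ependymal cells, 26.1 to 29.7 CPM in tanycytes and 10.5 to 16 CPM in astrocytes (1.95 ± 0.16 and 3.17 ± 0.19). Hspb11 was not called against tanycytes, at 67.9, 66.4, 75.9 and 50.5 CPM against 66.4 to 80.7 CPM (-0.30 ± 0.16, adjusted p = 0.122).

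Microtubule genes split by member, with 5 of 13 called higher and 2 lower than in tanycytes, where 13.1% and 6.73% of all genes were, and 5 higher and 3 lower than in astrocytes, where 17.6% and 14.3% were. Tppp3, which stabilizes microtubules, measured 1939, 1449.5, 1358 and 1647 CPM in ependymal cells, 262 to 448 CPM in tanycytes and 48.8 to 67.0 CPM in astrocytes (2.10 ± 0.09 and 4.68 ± 0.14). Tubb4b, a beta-tubulin of cilia, stood at 694, 733, 867 and 808 CPM against 157 to 211 CPM in tanycytes (1.98 ± 0.10, adjusted p = 1.33e-21). Tubb2b, another beta-tubulin, went the other way at 79.2, 104, 80.1 and 71.0 CPM against 189 to 224 CPM (-1.42 ± 0.12). Stmn1, which destabilizes microtubules, was also called lower than in tanycytes (-1.62 ± 0.10).

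Of 11 junction genes 1 was called higher and 1 lower than in tanycytes, where 13.1% and 6.73% of all genes were, and 2 were called higher and 4 lower than in astrocytes, where 17.6% and 14.3% were. The counts against tanycytes are thus near those shares. Ocln, the tight junction protein occludin, measured 141, 147, 94.9 and 129 CPM in ependymal cells and 28.4 to 42.8 CPM in tanycytes (1.69 ± 0.15, adjusted p = 4.09e-13). In astrocytes it stood at 2.00 to 4.00 CPM (5.33 ± 0.24). At so low a level in astrocytes, the second value describes the gene and supports nothing further. Cdh2, N-cadherin, was lower than in tanycytes, at 82.5, 83.7, 101 and 92.6 CPM against 369.7 to 428 CPM (-2.23 ± 0.11, adjusted p = 7.74e-21). The gap junction gene Gja1 stood at 470.4 to 702 CPM, a difference of 0.06 ± 0.09 from tanycytes (adjusted p = 0.583), and was called lower than in astrocytes (-1.63 ± 0.11). Gjb6, also of gap junctions, was at 26.5 to 50.1 CPM against 508 to 610.3 CPM in astrocytes (-4.01 ± 0.16).

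Of 14 genes of ion and water transport, 3 were called higher and 1 lower than in tanycytes (13.1% and 6.73% of all genes), and 1 higher and 6 lower than in astrocytes (17.6% and 14.3% of all genes). The water channel gene Aqp4, which is also on the astrocyte marker list, measured 288, 410.0, 477 and 272 CPM in ependymal cells, 43.1 to 87.4 CPM in tanycytes and 312 to 559 CPM in astrocytes. It was called against tanycytes (2.52 ± 0.11, adjusted p = 3.61e-23) and not against astrocytes (-0.37 ± 0.13, adjusted p = 0.0176). Slc2a1, the glucose transporter GLUT1, was called higher than in tanycytes at 173, 315, 255 and 303 CPM against 51.1 to 61.1 CPM (2.11 ± 0.12). The bicarbonate transporter gene Slc4a4 was called lower than in astrocytes at 186 to 265 CPM against 1580.4 to 1929 CPM (-3.09 ± 0.12).

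Secreted proteins and carriers had 3 of 13 genes called higher and 3 lower than in tanycytes, and 2 of 12 higher and 7 lower than in astrocytes, beside the same shares of all genes. Cst3, cystatin C, measured 5509, 3237, 3839 and 3979 CPM in ependymal cells, 22322 to 31325 CPM in tanycytes and 15454 to 23767 CPM in astrocytes, lower in both comparisons (-2.73 ± 0.10 and -2.32 ± 0.11). Clu, clusterin, lay between the types at 1346 to 1795 CPM, called higher than tanycytes at 480.3 to 635 CPM (1.31 ± 0.09) and lower than astrocytes at 2606 to 3265 CPM (-1.13 ± 0.11). Sparcl1 was called the same way in each (1.03 ± 0.09 and -1.63 ± 0.11). Of 16 metal and redox genes tested against tanycytes, 1 was called higher and 2 lower, near the 13.1% and 6.73% of all genes. Txn1, thioredoxin, was called higher at 787, 598, 856 and 694 CPM against 199.6 to 279 CPM (1.53 ± 0.09), and Prdx6, a peroxiredoxin, lower at 816 to 1103 CPM against 2850.1 to 3501 CPM (-1.80 ± 0.10).

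FGF1 acts through the FGF receptors, whose levels in ependymal cells were set beside those of the other 2 types. Fgfr1 measured 118, 156, 171 and 146 CPM in ependymal cells, 69.8, 89.6, 72.7 and 75.1 CPM in tanycytes and 113, 87.4, 124 and 111 CPM in astrocytes. The differences were 0.85 ± 0.13 (adjusted p = 4.77e-07) and 0.29 ± 0.14 (adjusted p = 0.0858), and neither was called. Fgfr2 stood at 29.1, 40.4, 52.7 and 36.1 CPM and differed by 0.40 ± 0.21 from tanycytes (adjusted p = 0.118) and by 0.37 ± 0.23 from astrocytes (adjusted p = 0.177). Fgfr3 was called against astrocytes and not against tanycytes, at 103, 124, 92.8 and 97.4 CPM against 836 to 925 CPM in astrocytes (-3.20 ± 0.13, adjusted p = 3.80e-14) and 83.2 to 105 CPM in tanycytes (0.06 ± 0.13, adjusted p = 0.760). The ligand gene Fgf1 stood at 35.6, 43.3, 14.8 and 42.1 CPM and was called lower than in astrocytes at 77.5 to 82.1 CPM (-1.31 ± 0.20, adjusted p = 1.23e-05).

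Of the 12 receptor, ligand and partner genes tested against tanycytes, 0 were called in either direction by edgeR and by DESeq2, where 13.1% of all genes were called higher and 6.73% lower, while at an unadjusted p below 0.05 there were 3 higher and 2 lower, and without mouse 3 there was 1 called lower. Against astrocytes, where 17.6% of all genes were called higher and 14.3% lower, 0 of 12 were called higher and 5 lower, and 0 were called higher by DESeq2 or were higher at an unadjusted p below 0.05. The 5 were Fgfr3, Fgf1, the receptor-like gene Fgfrl1 (-1.45 ± 0.42) and the proteoglycan genes Gpc5 (-3.33 ± 0.25) and Sdc3 (-2.13 ± 0.16). With any 1 mouse left out, 4 to 6 of the list were called lower than in astrocytes and 0 higher. The 10 listed targets of the ERK pathway, which lies downstream of these receptors, were low, and 5 were tested against tanycytes, with 0 called in either direction by edgeR and by DESeq2, 1 higher and 2 lower at an unadjusted p below 0.05, and 1 called lower when any 1 mouse was left out. Against astrocytes 4 of the 10 were tested, and of these Spry2 (-1.65 ± 0.20), Dusp6 (-1.26 ± 0.39) and Etv5 (-2.57 ± 0.24) were called lower and Ccnd1, cyclin D1, higher (1.47 ± 0.24). Leaving out any 1 mouse gave 2 to 3 of these targets lower and 1 to 2 higher.

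**Figure D3:**
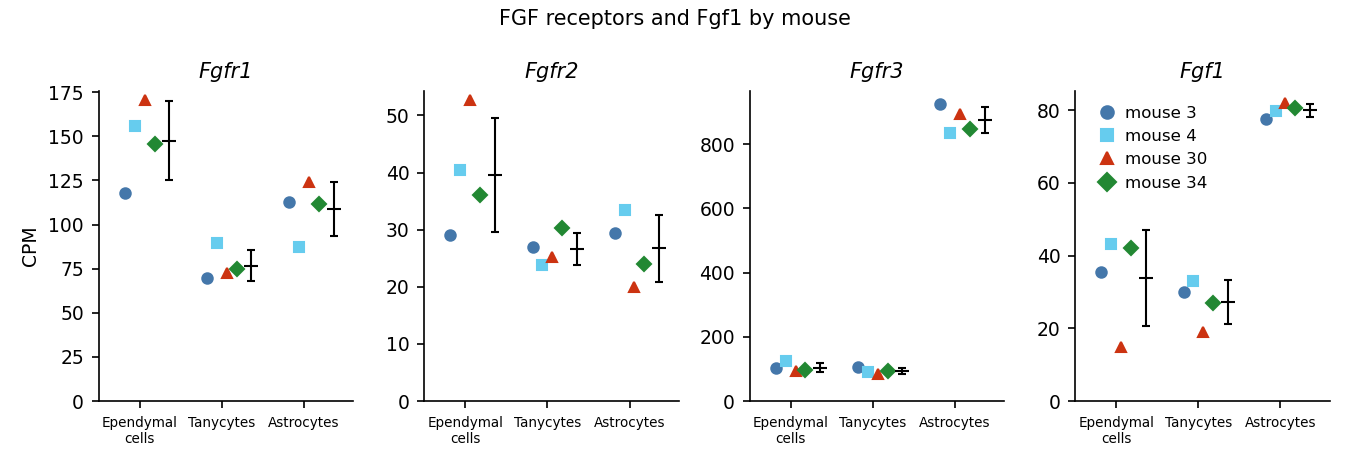
Level of Fgfr1, Fgfr2, Fgfr3 and Fgf1 in ependymal cells, tanycytes and astrocytes, in CPM, with 1 point for each mouse and a bar for the mean ± SD (n = 4). Fgfr3 lies at 92.8 to 124 CPM in ependymal cells and 836 to 925 CPM in astrocytes, while ependymal cells and tanycytes overlap.

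Stress and hormone response genes held some large differences. Of 18 immediate early and stress genes 4 were called higher and 2 lower than in tanycytes (13.1% and 6.73% of all genes), and 10 higher and 0 lower than in astrocytes (17.6% and 14.3% of all genes), where 0 were also lower by DESeq2 and at an unadjusted p below 0.05. Hsp90aa1, a chaperone, measured 3268, 2778, 2282 and 2668 CPM in ependymal cells, 724 to 972 CPM in tanycytes and 272 to 287 CPM in astrocytes (1.66 ± 0.09 and 3.18 ± 0.12). Fos, an immediate early gene, stood at 807, 1054, 1419 and 1925 CPM and was called in neither comparison (-0.08 ± 0.10 and 0.44 ± 0.26). Sgk1, a kinase induced by glucocorticoids, stood at 56.6, 75.1, 90.7 and 80.6 CPM against 7.37 to 24.2 CPM in tanycytes (2.53 ± 0.21), and Fkbp5, induced by the same hormones, was called lower (-1.50 ± 0.32).

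The 10 genes of largest difference above tanycytes were Cdhr4, Got1l1, Sntn, Prr29, Car9, Kcnmb1, Dnah3, BC051019, Gm16160 and Stoml3, all with 4 UMIs or fewer in the tanycytes of the 4 mice. Sntn encodes sentan, a protein of the tips of motile cilia. It measured 123, 202, 274 and 215 CPM in ependymal cells and 0.492 to 1.13 CPM in tanycytes (a ratio of pooled levels of 283 (95% counting interval 109.8 to 1043)), and ependymal cells were at least 366-fold higher than astrocytes, which held none. Cdhr4, a gene of the cadherin-related family, stood at 90.5, 182, 217 and 169.6 CPM, with a ratio of pooled levels to tanycytes of 452 (95% counting interval 124 to 3744). Car9, a carbonic anhydrase of the cell surface, stood at 79.2, 136, 129 and 112 CPM, with ratios of 311 (95% counting interval 85.2 to 2583) to tanycytes and 302 (95% counting interval 82.7 to 2507) to astrocytes. Kcnmb1, a subunit of a calcium-activated potassium channel, stood at 76.0, 124, 129 and 103 CPM, with a ratio of 295 (95% counting interval 80.7 to 2449) to tanycytes.

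The 10 genes farthest below tanycytes were Frzb, Crym, Rax, Fzd5, Gpc3, 6330403K07Rik, P3h2, Deptor, Col23a1 and Kctd14. Crym, a thyroid hormone binding protein of tanycytes, measured 8.08, 2.89, 21.1 and 6.01 CPM in ependymal cells and 495 to 881 CPM in tanycytes (-6.18 ± 0.18), as a member of the tanycyte marker list. Frzb, a secreted inhibitor of Wnt signals, stood at 4.85, 0, 4.22 and 0 CPM against 138 to 268 CPM, a ratio of pooled levels of 0.00991 (95% counting interval 0.00321 to 0.0232), and Fzd5, a Wnt receptor gene, at 1.62, 5.77, 6.33 and 2.41 CPM against 130.3 to 166 CPM (-5.39 ± 0.27). Rax, the homeobox factor of tanycytes, had 3 UMIs in all ependymal cells against 52.7 to 79.4 CPM in tanycytes.

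Against astrocytes the 10 highest were Sntn, Stoml3, Got1l1, FRMPD2, Prr29, Myb, Fbln7, Col8a2, Tmem212 and 1700001C02Rik. Stoml3, a gene of the stomatin family, measured 53.4, 109.7, 101 and 97.4 CPM in ependymal cells, at least 161-fold higher than astrocytes with no UMI. Got1l1 was at least 140.1-fold higher, Prr29 at least 131-fold and Fbln7 at least 101-fold. Col8a2, a collagen gene, stood at 100.2, 156, 139 and 146 CPM against 1 UMI, a ratio of 732 (95% counting interval 130.4 to 29007). The 10 lowest were Hes5, Cyp4f15, B3galt2, Cdh20, Atp13a4, Slc7a10, Gm3764, Gli1, Egfr and Lgi4. Hes5, a target of Notch signalling, had 3 UMIs in ependymal cells against 73.4 to 84.8 CPM in astrocytes. Gli1, a target of Hedgehog signalling, stood at 1.62, 5.77, 0 and 2.41 CPM against 41.1 to 58.9 CPM, a ratio of pooled levels of 0.0421 (95% counting interval 0.0136 to 0.0994). Egfr, the EGF receptor, stood at 3.23, 0, 0 and 4.81 CPM against 42.4 to 64.8 CPM (-4.36 ± 0.38, and -5.23 to -4.08 without each mouse). It had 6 UMIs in ependymal cells, a ratio of pooled levels of 0.0483 (95% counting interval 0.0176 to 0.106).

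In all, 411 genes were called higher in ependymal cells than in each of 7 other types (all those with 20 or more cells in each mouse), 10.5% of the 3923 genes tested against all 7, where single comparisons with oligodendrocytes, their precursors, committed precursors, endothelial cells and microglia called 22.8%, 20.4%, 26.3%, 21% and 28.6% higher, and 68 of the 411 were on the cilium lists. The 10 farthest above the next type were Prr29, BC051019, Sntn, Stoml3, FRMPD2, Stmnd1, Tmem212, Tctex1d4, Ccdc33 and Dnah3. FRMPD2 measured 167, 179, 160.3 and 188 CPM in ependymal cells, and its highest mean in another type was 2.15 CPM, in oligodendrocyte precursor cells. Tctex1d4, a dynein light chain gene, stood at 215, 211, 243 and 227 CPM and at 8.01 CPM or less in every mouse of the other 7 types. Stmnd1 stood at 126, 124, 109.7 and 134 CPM, with a highest mean elsewhere of 1.36 CPM, in tanycytes. Prr29, at 45.3, 57.7, 86.5 and 89.0 CPM, had 1 UMI in tanycytes and 0 in the other 6 types.

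Ependymal cells of mice 3, 4 and 34 fell mostly into a pair of the authors' clusters, numbered 11 and 12, which held 229 and 199 cells in mouse 3, 151 and 89 in mouse 4, 75 and 32 in mouse 30, and 208 and 227 in mouse 34. Their comparison was chosen after the values were seen, and the clusters were made from these counts, so it is a description. Cells of cluster 12 were deeper in every mouse, with median UMIs of 1310, 1677, 1471 and 1647 against 1022, 820, 804 and 1036.5. Their median mitochondrial share of UMIs was lower in every mouse, at 10.3%, 9.20%, 9.94% and 9.80% against 12.2%, 12.6%, 12.5% and 13%. The 4 markers summed to 4668 ± 305 CPM in cluster 12 and 2979 ± 242 CPM in cluster 11 (SD, n = 4). Intraflagellar transport summed to 3230 ± 168 against 2549 ± 154 CPM, and central pair genes to 2261 ± 393 against 1767 ± 121 CPM, with separate ranges in each. Astrocyte markers went the other way, at 1165 ± 49.8 in cluster 12 and 1509 ± 101 CPM in cluster 11, while tanycyte markers overlapped. Of 3783 genes with a mean of at least 50 CPM in either cluster, 283 were higher in cluster 11 in all 4 mice and 611 in cluster 12. Gpr50, an orphan receptor gene, had the largest log2 difference of the 283. It stood at 15.7 ± 2.83 CPM in cluster 12 and 70.3 ± 21.5 CPM in cluster 11. The part of depth and of the mitochondrial share in these values was not tested.

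The ependymal cells of mouse 30 stood apart. Of 1591 genes with at least 100 CPM, the 15 of largest dispersion between mice were Cxcl10, Ccl2, Cxcl1, Nfkbia, Gbp2, Vcam1, Fas, Cp, Ptgds, Stat3, Mfsd7b, B2m, Dnajb1, Ifi27 and H2-D1, and 14 of the 15 were highest in mouse 30, as were 19.6% of the 1591. Mouse 30 is 1 animal in 1 library, so its difference cannot be tested, and animal and library cannot be told apart. Cxcl10, a chemokine gene induced by interferon, measured 0, 0, 3731 and 38.5 CPM in mice 3, 4, 30 and 34. Ccl2, which attracts monocytes, stood at 0, 0, 1614 and 3.61 CPM, and Cxcl1, which attracts neutrophils, at 0, 0, 1015 and 15.6 CPM. These 3 were thus seen almost wholly in mouse 30, with small amounts in mouse 34. Nfkbia, an inhibitor that NF-kB itself induces, stood at 42.0, 46.2, 1251 and 117 CPM, and Gbp2, a GTPase gene induced by interferon, at 27.5, 34.6, 614 and 98.6 CPM. Vcam1, an adhesion molecule, stood at 32.3, 23.1, 432 and 42.1 CPM and Cp, ceruloplasmin, at 43.7, 34.6, 458 and 49.3 CPM. Each of these 7 genes was highest in mouse 30 and second in mouse 34.

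The same mouse stood out in gene lists. Chemokines and cytokines summed to 72.8, 63.5, 6916 and 132 CPM, genes of NF-kB and the acute phase to 149, 141, 3613 and 339 CPM, and interferon response genes to 1224, 930, 7108 and 2206 CPM. Of the members with a UMI in ependymal cells, 15 of 15, 16 of 16 and 27 of 27 were highest in mouse 30, and 13, 16 and 19 of them were over 3 times the next mouse. Mouse 34 was above mice 3 and 4 in 26 of the 27 interferon genes, 9 of the 16 NF-kB genes, 4 of the 15 chemokines, 13 of the 18 immediate early and stress genes and 8 of the 10 glucocorticoid response genes, and in 24.3% of the 1591 genes with at least 100 CPM. The interferon genes included Oasl2, an antiviral gene, at 3.23, 2.89, 251 and 61.3 CPM. Calls of these lists against other types moved with the mice included. Interferon genes called higher than in astrocytes numbered 7 of the 14 tested (17.6% of all genes), and 17, 15, 2 and 3 without mouse 3, 4, 30 and 34, where leaving out mouse 3 or 4 let more members be tested. Of the same list 0 were called lower than in astrocytes by edgeR and by DESeq2, 1 was lower at an unadjusted p below 0.05, and 1 was called lower without mouse 30. Chemokines called higher than in tanycytes numbered 2 of 4 (13.1% of all genes), with 1 lower, and 3, 3, 0 and 1. Not every count fell to 0 without mouse 30: 3 interferon genes were then called higher and 7 lower than in tanycytes (5 and 2 of 23 with all mice, beside 13.1% and 6.73% of all genes), and 1 chemokine higher than in astrocytes (1 with all mice). Cxcl10 was called higher than in tanycytes (1.81 ± 0.20), but DESeq2 gave -0.54 (adjusted p = 0.842), edgeR without the replicate block 2.08 (adjusted p = 0.293), and edgeR without the separate cluster of mouse 30 described below -1.11 (adjusted p = 3.38e-05). Of 3 cilium lists counted the same way, 1 of 13 central pair genes, 2 of 13 multiciliation regulators and 4 of 19 doublet genes were highest in mouse 30, as were 5 of 18 immediate early and stress genes and 6 of 10 glucocorticoid response genes, beside 19.6% of the 1591 genes.

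**Figure D4:**
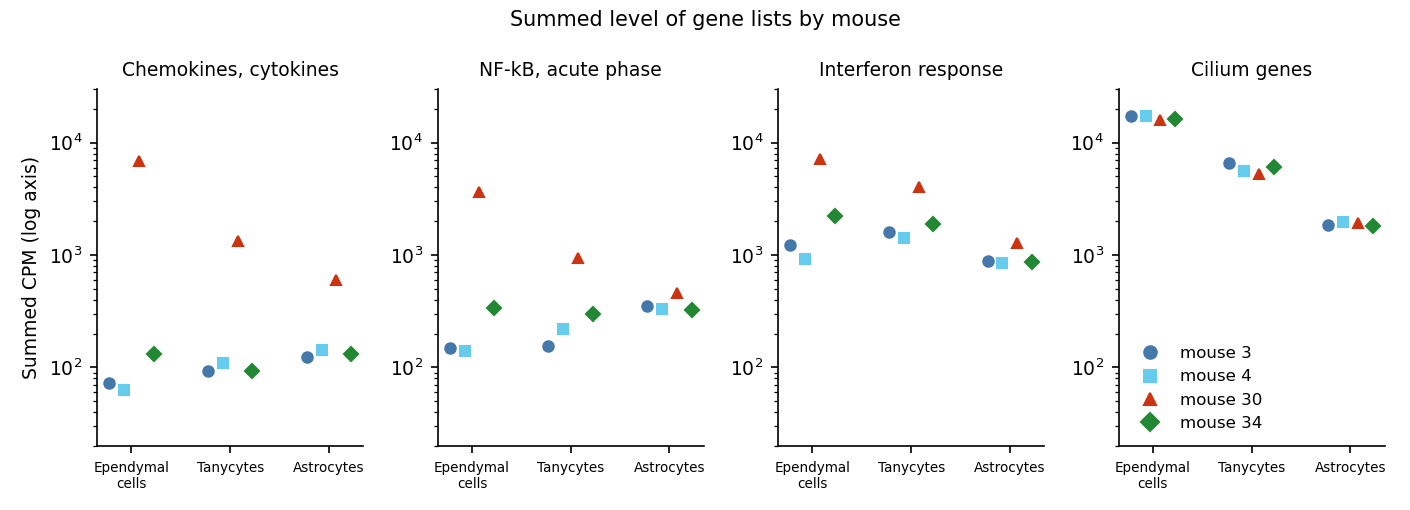
Summed level of 3 response lists and of the cilium genes in ependymal cells, tanycytes and astrocytes, in CPM on log axes, with 1 point for each mouse. Mouse 30 is highest in all 3 types for the response lists, at 6916 CPM for chemokines in ependymal cells against 132 CPM or less in the other mice, and its cilium genes stand at 15783 CPM, the lowest of the 4.

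Other types of mouse 30 shared part of this. Chemokines and cytokines summed to 1346 CPM in its tanycytes, 598 CPM in its astrocytes and 18301 CPM in its microglia, where the other mice had at most 110, 144 and 2750 CPM. At 500 UMIs a cell, Cxcl10 was seen in 66.1% of its ependymal cells (exact 95% interval 61.0% to 70.8%; 73.9% unthinned), 18.6% of its tanycytes (16% to 21.3%), 28.4% of its microglia (19.6% to 38.6%), 56.8% of its 44 vascular leptomeningeal cells (41.0% to 71.7%) and 1.48% of its oligodendrocytes (0.597% to 3.03%). The Cxcl10 share thus differed between types of 1 library, and ependymal and leptomeningeal cells, whose intervals overlap, had the highest. For Ccl2 the share was 36.6% of its ependymal cells (31.7% to 41.6%) and 68.2% of its leptomeningeal cells (52.4% to 81.4%). For Cxcl1 it was 27.6% (23.2% to 32.4%) and 68.2% (52.4% to 81.4%). Nfkbia was seen in 42.9% of its ependymal cells, 44% of its endothelial cells, 43.2% of its microglia and 50% of its leptomeningeal cells. Complement C3 was seen in 14.5% of its ependymal cells (11.1% to 18.4%) and 0.118% of its tanycytes (0.00298% to 0.653%), and in no other type above 4.55%, from 2 of 44 leptomeningeal cells (0.555% to 15.5%). Steap4, a metal reductase gene, was seen in 12.4% of ependymal cells (9.23% to 16.1%) and 0.705% of tanycytes (0.259% to 1.53%). Intervals cover counting error only.

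Within mouse 30 the cells were uneven. One of the authors' clusters held 271 of its 380 ependymal cells (71.3%, exact 95% interval 66.5% to 75.8%) and 4 of the 1150 of the other mice (0.348%, 0.0948% to 0.888%). Cxcl10 stood at 5146 CPM in that cluster (95% Poisson interval 4907 to 5394) and 227 CPM (154 to 323) in the other 109 ependymal cells of the mouse. Nfkbia stood at 1513 CPM (1385 to 1650) against 601 CPM (478 to 746), and C3 at 524 CPM (450 to 607) against 29.3 CPM (7.99 to 75.1). The other 109 cells were thus lower than the cluster, while their Nfkbia and Cxcl10 were above the values of mice 3, 4 and 34. The 4 ependymal markers summed to 3645 CPM (3444 to 3854) in the cluster and 4019 CPM (3689 to 4370) outside it, and central pair genes to 2058 CPM (1908 to 2217) and 1870 CPM (1647 to 2114). Markers of other types were low in both but not equal, with microglial markers at 82.9 CPM (55.1 to 120) in the cluster and 36.7 CPM (11.9 to 85.6) outside it, and leptomeningeal markers at 29.6 CPM (14.2 to 54.5) against 0 UMIs (up to 22.0 CPM at 3 UMIs). The 4 Y-linked genes stood at 91.8 CPM (62.4 to 130) against 29.3 CPM (7.99 to 75.1). Their part in the contrast was not tested. The silhouette score deposited by the authors had a median of 0.087 in the cluster and 0.332 in the other 109 cells. In the ependymal cells of mice 3, 4 and 34 its median was 0.340 to 0.372. The cluster was made from these counts, so the contrast is a description.

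**Figure D5:**
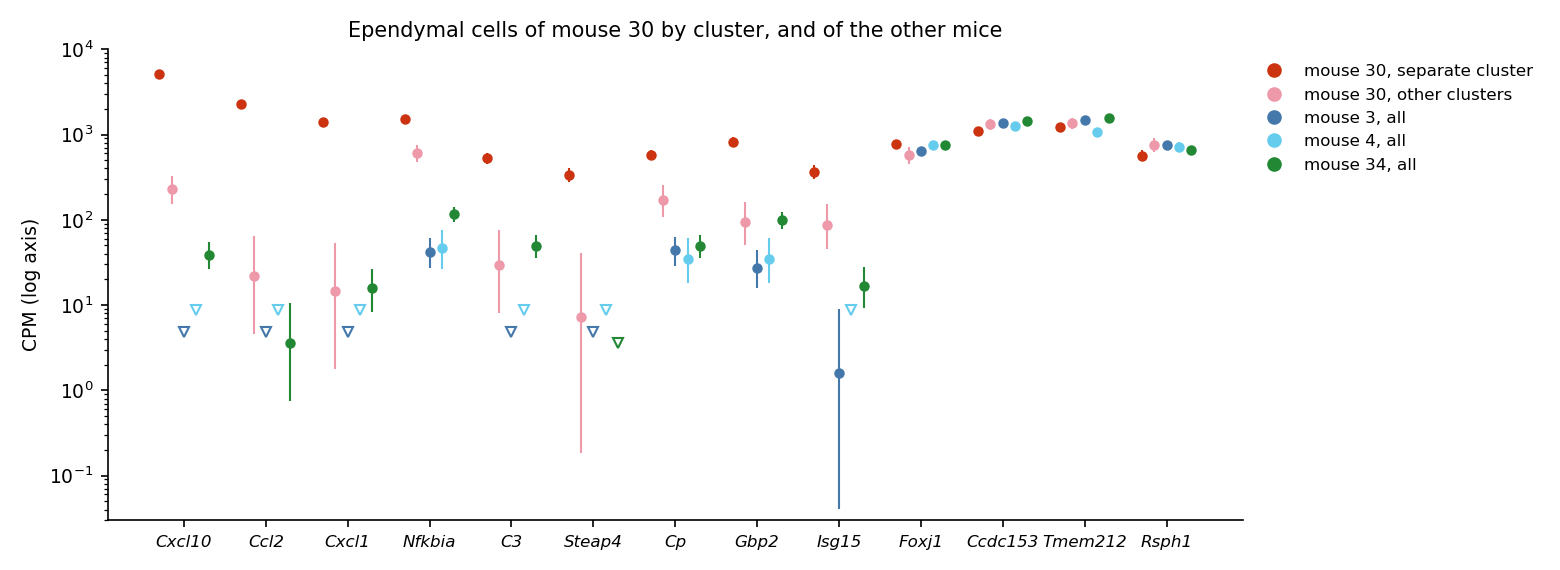
Level of 13 genes in the ependymal cells of mouse 30, split into the separate cluster (271 cells) and its other clusters (109 cells), and in those of mice 3, 4 and 34, in CPM on a log axis. Bars are 95% Poisson intervals, which cover counting error only, and open triangles mark the floor of 3 UMIs for a count of 0. Cxcl10 reaches 5146 CPM in the separate cluster and 227 CPM in the other cells of the mouse.

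Other values moved with mouse 30. Hemoglobin genes summed to 394 CPM in its ependymal cells against 77.6 to 118 CPM in those of the other mice, and to 435 and 548 CPM in its tanycytes and astrocytes. The 4 Y-linked genes summed to 73.8 CPM against 173 to 191 CPM, and were also lowest in mouse 30 in tanycytes and astrocytes. Ptgds, prostaglandin D synthase, was highest in mouse 30 in all 3 types, at 63.1, 269, 1031 and 197 CPM in ependymal cells. Microglial markers summed to 69.6 CPM in its ependymal cells, against 28.9 to 40.4 CPM in the other mice and 6134 CPM in its microglia, and leptomeningeal markers to 21.1 CPM against 7.22 CPM or less. Their part in the values of mouse 30 was not tested.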

How the data were processed

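The table of raw UMI counts per cell and gene was deposited by the authors, with cell type labels, clusters, the percent of mitochondrial UMIs, a doublet score given as a fraction, and a silhouette score for each cell, all of them the authors' deposited values. The submitters' processing notes name Cell Ranger 1.2 and Seurat and the builds GRCm38, mm10 and GRCh38 with no role, and the assignment of these to steps is not given in the sources used here. The deposited cells had at least 487 UMIs and 396 genes and at most 20.0% mitochondrial UMIs, and 0 were marked as doublets, with doublet scores up to 0.652. No further cell was removed. Of 70323 cells, 50172 came from 12 libraries that were not used here, and the depth-corrected counts in the deposit were not used. Total UMIs and genes per cell matched the counts in every cell used.

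Counts were summed per mouse and type (at least 20 cells in every mouse) and tested with edgeR 4.0.16 in R 4.3.3 (quasi-likelihood F test, TMM, filterByExpr, mouse as a block), with SE taken from the F statistic. Cells of a type from 1 mouse are 1 replicate. The types come from the same mice, which gives the pairing, and the deviations of the sums of the same mouse correlated at 0.150 to 0.382 with tanycytes and 0.119 to 0.220 with astrocytes. Shares were computed with cells thinned to 500 UMIs. Ratios with 5 or fewer UMIs in the lower type carry exact counting intervals, and intervals cover counting error only. The genes named are the 10 of largest log2 fold change each way among called genes with the same direction in every mouse and at least 50 CPM in the higher type, the 10 farthest above every other type, the 15 of largest dispersion with at least 100 CPM, and list members given as examples. Members and lists were chosen with earlier results of these data known. Alternatives were DESeq2 1.42.0, other size factors, no filter, no block, 1 fit over all types, equal totals, without the highest doublet scores, and without each mouse. 1 result is not reported here. The test was tried on simulated data. Other software was numpy 2.4.6, scipy 1.17.1, pandas 2.3.3 and matplotlib 3.10.9.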

Additional observations from a re-analysis of the deposited data

Results flagged for a closer look

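With 4 mice, a value stands apart where its gap to the nearest other mouse, divided by the range, exceeds Dixon's 95% critical value. The rule only flags values for a closer look and is no test of what sets a mouse apart. Of 94 ependymal quantities screened 14 did so. Of the 15 genes chosen for the largest dispersion between mice 9 did (Cxcl10, Ccl2, Cxcl1, Nfkbia, Gbp2, Vcam1, Fas, Cp and B2m), which follows from how they were chosen and has no chance value. Of the other 79 quantities 5 did, and no chance rate applies to them. The chemokine and NF-kB sums among them hold Cxcl10, Ccl2, Cxcl1, Nfkbia and Vcam1, which were chosen for dispersion. The lists were chosen with earlier results of these data known, and these quantities are not independent of each other. In 12 of the 14 mouse 30 was the highest. These were the sums of hemoglobin genes (394 CPM), of chemokines and cytokines (6916 CPM) and of NF-kB and acute phase genes (3613 CPM), and the levels of Cxcl10 (3731 CPM), Ccl2 (1614 CPM), Cxcl1 (1015 CPM), Nfkbia (1251 CPM), Gbp2 (614 CPM), Vcam1 (432 CPM), Fas (397 CPM), Cp (458 CPM) and B2m (542 CPM). In 1, the sum of Y-linked genes at 73.8 CPM, mouse 30 was the lowest, against 173 to 191 CPM in the others. The remaining 1 was Atp13a4 in mouse 3 at 9.70 CPM, against 5.77 to 6.33 CPM in the others, which lies near the level of 3 UMIs.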

How the results depend on the processing

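Depth limits the counts. With sums thinned to equal totals, calls against tanycytes fell from 1743 to 1088, with 747 higher and 341 lower, and genes higher than in each other type from 411 to 50, with 585 genes tested against all 7 types in place of 3923. With no filter on low counts there were 960 lower than tanycytes and 676 higher than each other type. An alternative chosen after seeing the data, mouse 30 without its separate cluster, left 257 genes higher than each other type, 256 of them among the 411, with 2076 genes tested. It turned Cxcl10 against tanycytes to -1.11 (adjusted p = 3.38e-05) from 1.81, and DESeq2 turned it to -0.54 (0.842); the cause was not tested. Without a replicate block for the mouse there were 1744 and 2678 calls and 411 genes, and Cxcl10 (2.08, adjusted p = 0.293) and Nfkbia (1.78, 0.164) lost their calls against tanycytes. Leaving out each mouse gave 1754 to 1920 calls against tanycytes (1149 to 1268 higher, 605 to 653 lower), 2448 to 2976 against astrocytes (1317 to 1592 and 1131 to 1384) and 417 to 455 genes higher than each type. Mean levels then ran from 3933 to 4150 CPM for the markers, 2016 to 2183 for central pair genes and 3125 to 3368 for doublet genes, and the cell share from 6.91% to 9.14%. Chemokines ran from 89.5 CPM, without mouse 30, to 2374 CPM, NF-kB genes from 210 to 1367 CPM and interferon genes from 1453 to 3513 CPM. Over 177 fold changes of named genes, 2076 of 2104 alternatives kept their call or lack of one, 18 lost the call and 8 gained it. The other 2 changed sign with a call in at least 1 of the fits. The 2076 include sign changes where neither fit called the gene. Stat3 against tanycytes, for example, ran from -0.26 to 0.32 over the fits without each mouse.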

Other observations

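Some genes called higher in ependymal cells than in each of the 7 other types belong to none of the lists above and were chosen after their values were seen. Hdc, the enzyme that makes histamine, stood at 426 ± 63.7 CPM in ependymal cells (SD, n = 4; 374 to 519 CPM), against 15.7 ± 4.57 CPM in tanycytes and 6.56 ± 0.438 CPM in astrocytes. Lbp, which binds bacterial lipopolysaccharide, stood at 310 ± 54.0 CPM (246 to 378 CPM), against a mean of 4.41 CPM or less in the other types. Cd24a, a surface glycoprotein, stood at 1018 ± 335 CPM (666 to 1472 CPM), with a highest mean elsewhere of 48.3 CPM, in oligodendrocyte precursor cells. Fgf7, a growth factor of the FGF family that was not on the FGF list, stood at 59.0 ± 20.6 CPM, and its ratio of pooled levels was 105 to tanycytes (95% counting interval 35.2 to 518) and 102 to astrocytes (34.2 to 503), which held 3 UMIs each.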
